A study of Mus musculus with 22 samples.

Results

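Tenascin C (Tnc), periostin (Postn), thrombospondin 3 (Thbs3), CCN2 (Ccn2, formerly connective tissue growth factor) and fibronectin (Fn1) were followed through the growth of the mouse lung. Every probe set annotated to one of these single symbols was taken, which gave 6 probe sets: 1 each for Tnc and Postn on chip B, 1 each for Thbs3 and Ccn2 on chip A, and 1 on each chip for Fn1. They are 5 of 6118 genes named on the chips, and all 6 probe sets passed the filter on low signals that left 4130 genes for testing. The lungs came from normal Swiss Webster mice at 7 postnatal ages, P1, P4, P7, P10, P14, P21 (postnatal days) and adult, and at 4 embryonic ages, E12, E14, E16 and E18 (embryonic days). Whole lungs were used at every age, no treatment or allele is named, and RNA of at least 3 lungs went into the pool of each age. The lungs of E12, E14 and E16 were already combined when RNA was isolated, those of the other ages were not. Each pool was hybridised once to each of 2 Affymetrix chips, here chip A and chip B, so every signal below comes from 1 pool and no age has a replicate.

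Matricellular proteins are secreted into the extracellular matrix, where they tune adhesion and growth factor signalling rather than bear load. Fibronectin is a structural glycoprotein that cells assemble into fibrils through integrins, and periostin and tenascin C bind to it. In the lung, the branching airway tree of the embryo widens into sacs around birth, and after birth the sacs are divided by alveolar septa while fibroblasts lay down matrix.

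Promoter windows from RefSeq (GRCm38.p6) were at hand for Tnc, Postn and Thbs3. Ccn2 and Fn1 had no window. The windows are shown for their letters alone, and a relation of these letters to the courses was not tested. Each line gives the 250 bases before a transcription start, 5′ to 3′ on the gene's strand. Capitals mark matches on either strand to 4 motifs, none of which overlap here. The TATA box was searched as TATANAA. The CCAAT box was searched by its own letters. The GC box was searched as GGGCGG. The SMAD-binding element was searched as CAGACA. Tnc and Postn have 2 annotated starts each, and the downstream one is printed.
Tnc, chr4:64046937-64047186, minus strand: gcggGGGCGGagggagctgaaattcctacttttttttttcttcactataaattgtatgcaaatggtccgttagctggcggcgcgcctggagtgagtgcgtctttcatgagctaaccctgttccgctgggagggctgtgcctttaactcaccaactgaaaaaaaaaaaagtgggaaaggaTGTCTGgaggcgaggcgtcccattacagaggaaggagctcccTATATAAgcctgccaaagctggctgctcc
Postn, chr3:54360857-54361106, plus strand: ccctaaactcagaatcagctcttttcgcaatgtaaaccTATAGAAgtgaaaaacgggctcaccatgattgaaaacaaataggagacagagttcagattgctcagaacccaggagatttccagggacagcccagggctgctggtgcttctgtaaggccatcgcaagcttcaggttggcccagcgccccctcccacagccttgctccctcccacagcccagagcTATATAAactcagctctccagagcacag
Thbs3, chr3:89214930-89215179, plus strand: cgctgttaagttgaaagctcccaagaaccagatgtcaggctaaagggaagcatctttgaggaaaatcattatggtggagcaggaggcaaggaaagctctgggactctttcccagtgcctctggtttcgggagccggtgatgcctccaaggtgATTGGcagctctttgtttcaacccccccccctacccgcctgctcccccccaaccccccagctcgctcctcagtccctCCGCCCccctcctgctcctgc

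In the windows of Tnc and Postn a TATA box match began 29 and 28 bases before the start, and Postn held another that began 212 bases before it. Thbs3 held no TATA box match in its window, but a CCAAT box on the opposite strand, 98 to 94 bases before the start, and a GC box, also on the opposite strand, 21 to 16 bases before it. Tnc also had a GC box and 1 match to the SMAD-binding element on the opposite strand. Among all 32851 windows of this length, 10.4% held the TATA box, 33.8% the CCAAT box, 32.7% the GC box and 17.1% the SMAD-binding element. The window of the other Tnc start had a GC box alone, and that of the other Postn start had none of the 4 motifs. A match describes the letters and is not a binding site.

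Signals are the deposited linear intensities, and ages are compared within a probe set, never levels between probe sets. The mean signal per array lay between 609.6 and 633.5 on chip A and between 625.9 and 787.5 on chip B, where the E12, E14 and P7 arrays had the highest means. Of the 5 kept lung epithelial markers, Scgb1a1 and Sftpc were above the chip's median at all ages, Sftpc between 629.6 (adult) and 10930.8 (E16). Ager was at 166.9 and 102.1 at E12 and E14 and at 8152.5 or above from E18 on, and Sftpd was at 61.6 to 80.6 up to E16 and at 1635.9 or above from E18 on. Nkx2-1 was under the chip's median of 176.7 at every age except E16, P1 and adult. Marker sums set some pools apart. The T cell list had its highest sum at P1 (2770, against at most 1691 elsewhere), and so had the heart muscle list (19188, against at most 14141). The skeletal muscle and squamous lists were highest at P21 (19245 and 7207, against at most 7824 and 2667 elsewhere). Single genes weighed heavily in these sums. Actc1 was at 11666.5 at P1, where Myh6, Tnnt2 and Myl4 were highest too, but not Tnni3 and Cox6a2. Cd3e, Cd8a and Thy1 were highest at P1, and Cd4 was lowest there (85.7). Krt4 was at 4292 and Sprr1a at 1742 at P21, whereas Krt14, Krt17 and Krt6a were highest at other ages.

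Fibronectin, the scaffold of the group, was highest from E18 to P14 and lower at both ends of the series. On chip A the Fn1 signal was 1924.6, 1964, 2924 and 10057.7 at E12, E14, E16 and E18, and 7785, 8564.5, 8812.9, 8298.9, 7802.3, 4319 and 2766.3 at P1, P4, P7, P10, P14, P21 and in the adult. On chip B the Fn1 signal was 3004.5, 3419.5, 6012.9 and 15425.9 at the same embryonic ages and 11775.5, 11504.7, 15738.7, 12035.7, 10989.8, 7367.7 and 4808 at the postnatal ages. Both probe sets showed low early pools, a high stretch that began at E18, and a lower adult pool. The eras overlapped on both chips, because the E18 pool was among the highest and the adult pool lay below the E16 pool.

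The largest step of Fn1 lay between E16 and E18, where the signal was 2.57-fold higher at E18 on chip B and 3.44-fold higher on chip A. Of all genes, 8.33% were at least 2-fold higher in that step, with the higher signal above the chip's median. In no other step was Fn1 2-fold apart on either chip. The P7 and E18 pools of chip B differed by 0.03 on the log2 scale, less than the scatter around the smooth course (residual SD 0.33). P10, P1, P4 and P14, next in the order, followed each other by gaps within that scatter. The maximum was 3.27 times the adult signal on chip B and 3.64 times on chip A.

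The 2 Fn1 probe sets read the same pools and so repeat the measurement, not the biology. Across the 11 ages their log2 signals had a Pearson correlation of 0.98, and the log2 difference of chip B from chip A had an SD of 0.18. Over 231 genes kept on both chips the median correlation was 0.68 and the median SD 0.37. They placed the maximum differently, at P7 on chip B and at E18 on chip A. After quantile normalisation the chip B maximum was at E18 too, with 16217.9 at E18 and 13343.4 at P7. Names of these probe sets carry a suffix that marks probes shared within a sequence family, so related sequences may add to the signal. Tnc, Postn, Thbs3 and Ccn2 have 1 probe set each and so no second reading. Their probe set names carry a suffix too, a different one, and whether related sequences add to their signals cannot be seen here.

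**Figure D1:**
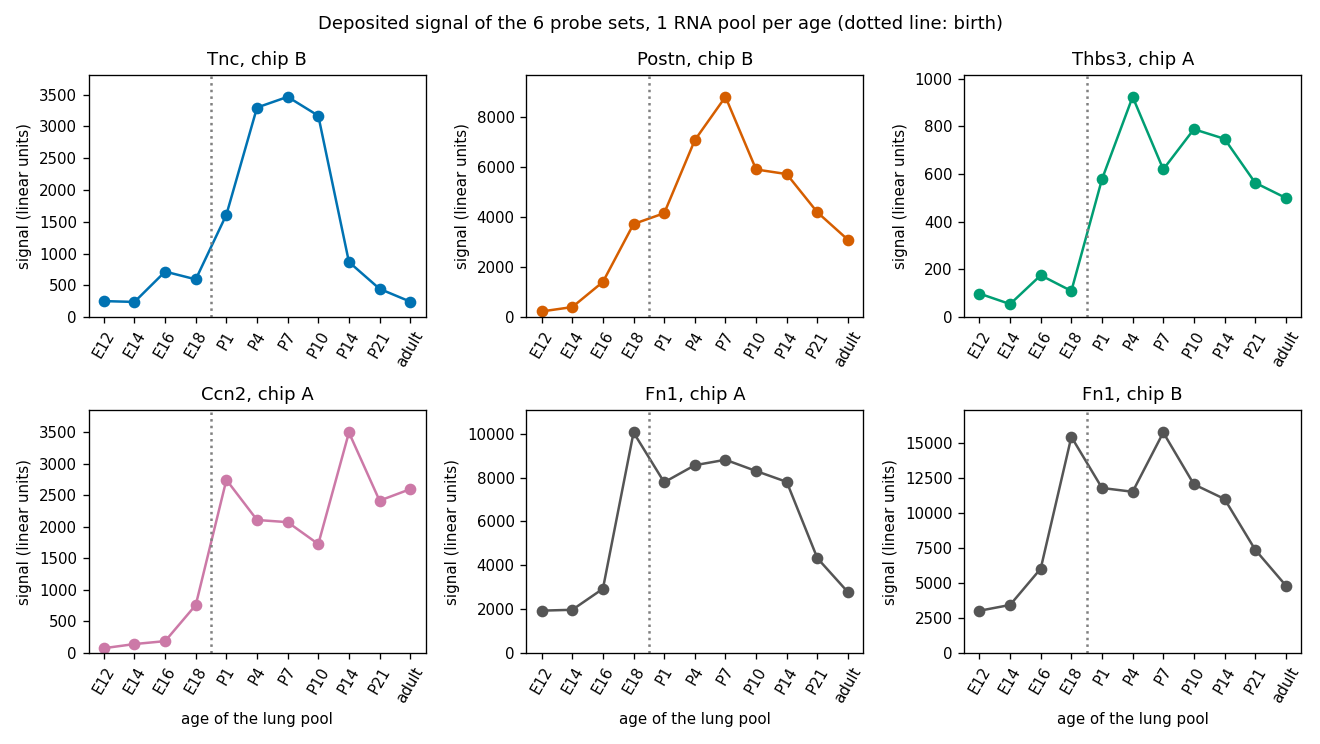
Deposited signal of each of the 6 probe sets (linear units, each axis from 0) at the 11 ages, 1 point per pool, with a dotted line at birth. Tnc reaches 3465.0 at P7 and is back at 244.0 in the adult, whereas Ccn2 stays at 1723.4 or above at every postnatal age.

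Periostin, a matrix protein of fibroblasts that binds collagen and fibronectin, climbed through the embryonic ages to a maximum in the first postnatal week. Postn had signals of 227.8, 402.7, 1407.5 and 3720.3 at E12, E14, E16 and E18, and of 4151.8, 7071.9, 8800.6, 5899.3, 5714.6, 4187.1 and 3088.5 at P1, P4, P7, P10, P14, P21 and in the adult. Each embryonic pool lay above the one before it, the P7 pool was highest, and the adult pool lay below the E18 pool, so the eras overlapped.

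Postn was 3.50-fold higher at E16 than at E14, where 4.21% of all genes were at least 2-fold higher, and 2.64-fold higher at E18 than at E16. Across birth it differed little, with P1 at 1.12 times E18. The P7 maximum was 38.6 times the E12 signal and 2.85 times the adult signal. It stayed at P7 after quantile normalisation, at 8234.6. In the order of signals P4, P10 and P14 followed each other by gaps within the scatter around the smooth course (residual SD 0.28), and P7 lay above P4 by 0.32 on the log2 scale.

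Tenascin C, a glycoprotein that weakens cell adhesion to fibronectin, had a narrow postnatal peak. Tnc had signals of 252.4, 239.4, 716.4 and 594.2 at E12, E14, E16 and E18, and of 1611.6, 3296.5, 3465, 3167.7, 867.5, 445.2 and 244 at P1, P4, P7, P10, P14, P21 and in the adult. The P4, P7 and P10 pools stood well above all others, and the adult pool was between the E14 and E12 pools. The eras overlapped at the late ages, not at P1 to P14.

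Tnc was 2.99-fold higher at E16 than at E14, 2.71-fold higher at P1 than at E18 and 2.05-fold higher at P4 than at P1. At least 2-fold higher in the last 2 of these steps were 4.12% and 1.89% of all genes. Between P10 and P14 the signal was 3.65-fold lower at P14, a step in which 1.31% of all genes were at least 2-fold lower. P7 was 14.2 times the adult signal. P7, P4 and P10 followed each other in the order of signals by gaps within the residual SD of 0.51, and quantile normalisation put the highest signal at P4 (3520.3, with 3301.3 at P7).

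Thrombospondin 3, a pentameric calcium-binding thrombospondin, was low before birth and higher at all postnatal ages. Thbs3 had signals of 98.8, 54.7, 175.5 and 109.7 at E12, E14, E16 and E18, and of 578.3, 923.5, 619.5, 787.8, 747.4, 563.3 and 499.7 at P1, P4, P7, P10, P14, P21 and in the adult. All 7 postnatal pools lay above all 4 embryonic pools. The E14 value was under the floor of 72.3 to which low chip A signals were set, and all embryonic values were under the chip's median of 250.3. The size of the difference from them therefore depends on the floor.

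Thbs3 was 5.27-fold higher at P1 than at E18, and no later step reached 2-fold. Among the 7 postnatal pools each was within the residual SD of 0.64 of the next postnatal one in the order of signals. P4 was 1.85 times the adult signal.

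CCN2, a secreted cysteine-rich protein whose gene responds to TGF-beta and to mechanical load through YAP, was also higher at all postnatal ages, and it alone of the 5 was highest at P14. Ccn2 had signals of 73, 138.8, 185.2 and 757.3 at E12, E14, E16 and E18, and of 2741.1, 2105.1, 2070.8, 1723.4, 3491.6, 2411.3 and 2593.9 at P1, P4, P7, P10, P14, P21 and in the adult. Every postnatal pool was above every embryonic pool, and E18 lay between the earlier embryonic pools and the postnatal ones. The E12 signal was just above the floor.

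Ccn2 was 4.09-fold higher at E18 than at E16 and 3.62-fold higher at P1 than at E18. At P14 it was 2.03-fold higher than at P10, where 1.82% of all genes were at least 2-fold higher. Among the postnatal pools each was within the residual SD of 0.62 of the next postnatal one in order, and the P14 maximum was 1.35 times the adult signal.

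**Figure D2:**
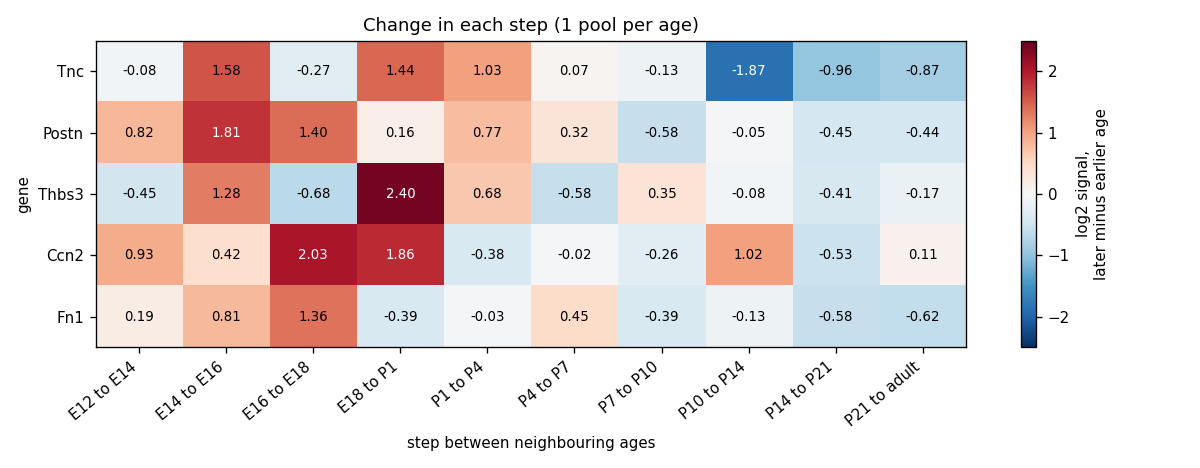
Log2 signal of the later minus the earlier age for each step between neighbouring ages (columns) and each of the 5 genes (rows, Fn1 by its chip B probe set), with 1 pool per age, as a colour and a printed value. Thbs3 (5.27-fold) has its largest step between E18 and P1, Postn between E14 and E16 (3.50-fold), and Fn1 and Ccn2 between E16 and E18 (2.57-fold and 4.09-fold).

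Postnatal and embryonic ages were then compared, to ask which of these genes differ in level after birth. Thbs3, Ccn2 and Postn rose and Tnc and Fn1 did not pass the test (limma, Benjamini-Hochberg over 4130 genes, threshold 0.05). Ages of an era are not replicates but stages of 1 course, each with 1 pool, so the error is the scatter between ages and these p-values are likely too small. In whole lung, more RNA per cell and more cells of a type cannot be told apart.

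Mean log2 signals of Ccn2 were 11.22 ± 0.33 at postnatal ages (SD, n = 7) and 7.60 ± 1.42 at embryonic ages (SD, n = 4), a difference of 3.62 ± 0.48 (SE, adjusted p = 0.00121, limma). Thbs3 had 9.37 ± 0.31 at postnatal and 6.76 ± 0.53 at embryonic ages, a difference of 2.61 ± 0.24 (adjusted p = 9.84e-05, limma). Thbs3 passed the filter on low signals through its postnatal pools alone, and with no filter its adjusted p was 0.00139 (limma). Of the embryonic pools of Ccn2 only E18 was above the chip's median, and with no filter its adjusted p was 0.00592 (limma). Postn had 12.36 ± 0.51 at postnatal and 9.70 ± 1.81 at embryonic ages, a difference of 2.66 ± 0.62 (adjusted p = 0.0101, limma). Without the E12 and P7 pools, Postn did not pass (1.92 ± 0.56, adjusted p = 0.0539, limma), while Thbs3 and Ccn2, both on chip A, did. The chip B means of these pools were among the highest, but E14 (713) was above P7 (705.4) and stayed in. E12 and P7 were also the lowest and highest pools of Postn. Postn, Thbs3 and Ccn2 all passed without the P1 and P21 pools, which stood apart in marker sums. These 3 of 5 genes stand beside 16.8% of all genes that were called higher and 14.2% called lower. The median difference was 2.61 over the 5 genes and 0.01 over all genes.

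For Tnc the means were 10.32 ± 1.53 at postnatal and 8.65 ± 0.82 at embryonic ages, and the difference of 1.67 ± 0.73 did not pass (adjusted p = 0.099, limma). For Fn1 they were 13.29 ± 0.57 at postnatal and 12.44 ± 1.07 at embryonic ages on chip B, with a difference of 0.85 ± 0.43 (adjusted p = 0.148, limma). The chip A probe set of Fn1 gave 0.99 ± 0.46 (adjusted p = 0.121 over 4887 probe sets, limma). Tnc passed without the adult (2.07 ± 0.61, adjusted p = 0.0308, limma) and Fn1 without E18 (1.34 ± 0.34, adjusted p = 0.0079, limma). These were the lowest postnatal pool of Tnc and the highest embryonic pool of Fn1. No other omission of 1 age made either pass, and adjusted p reached 0.242 for Tnc and 0.41 for Fn1 (limma). Thbs3 and Ccn2, 2 of the 5, had all postnatal above all embryonic pools, as had 7.24% of all genes.

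Where the ages were divided before E18 in place of at birth, Fn1 passed. E18 to adult minus E12 to E16 was 1.42 ± 0.34 for Fn1 (adjusted p = 0.00512, limma) and 3.32 ± 0.46 for Postn (adjusted p = 0.000218, limma). Ccn2 (4.07 ± 0.40) and Thbs3 (2.29 ± 0.53) passed in this division too, and Tnc (1.72 ± 0.80) did not. This division called 23.4% of all genes higher and 21% lower.

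**Figure D3:**
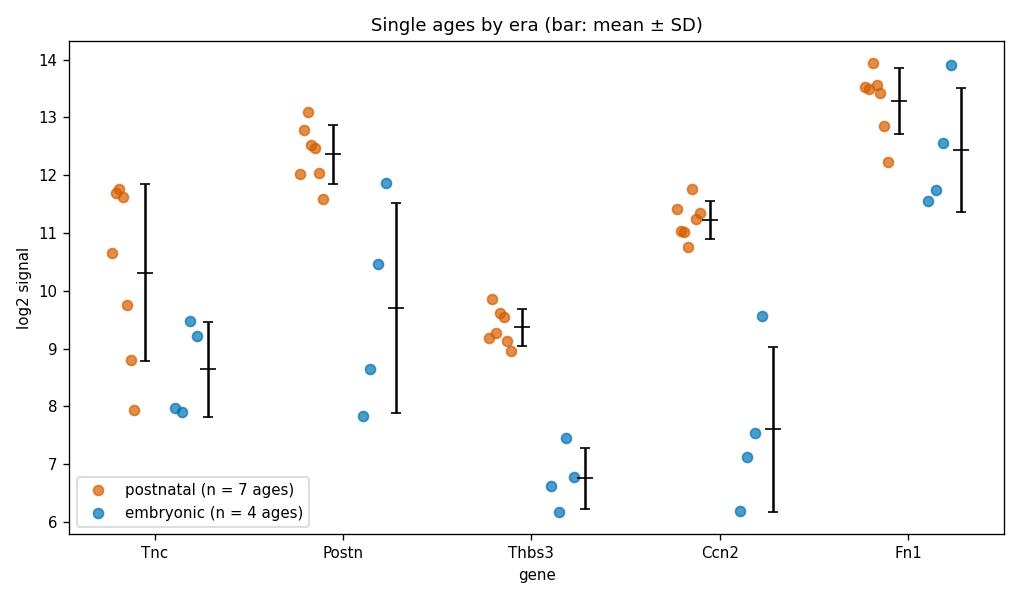
Log2 signal of each gene at postnatal (left) and embryonic (right) ages, 1 point per age, with the mean ± SD as a black bar (n = 7 and n = 4 ages). Postnatal and embryonic points do not overlap for Thbs3 and Ccn2 and overlap for Tnc, Postn and Fn1.

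The shape of each course was tested with a natural spline over age order, which can rise and fall again. All 5 genes passed, and 42.2% of all genes did. The fitted range was largest for Ccn2 (5.58 on the log2 scale, adjusted p = 0.000149, limma) and Postn (5.26, adjusted p = 6.91e-06, limma). It was 4.09 for Tnc, 3.60 for Thbs3 and 2.48 for Fn1. Fitted maxima fell at P4 for Fn1, P7 for Postn and Tnc, P10 for Thbs3 and P14 for Ccn2. The scatter around the curve was 0.28 for Postn and 0.33 for Fn1, against 0.51 to 0.64 for Tnc, Ccn2 and Thbs3 and a median of 0.26 over all genes.

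A straight line over age order passed for Ccn2 (0.52 per age step), Postn (0.37) and Thbs3 (0.32), with adjusted p of 0.00129, 0.014 and 0.00528 (limma). Postn did not pass the line without E12 (0.26, adjusted p = 0.0895) or without E14 (0.31, adjusted p = 0.0515). The line called 22.1% of all genes higher and 19.7% lower. Tnc and Fn1 each had a slope of 0.09 and did not pass. Without 1 age their slopes ran from 0.01 (without E12) to 0.24 (without the adult) for Tnc and from 0.03 (without E12) to 0.17 (without the adult) for Fn1, and none passed.

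**Figure D4:**
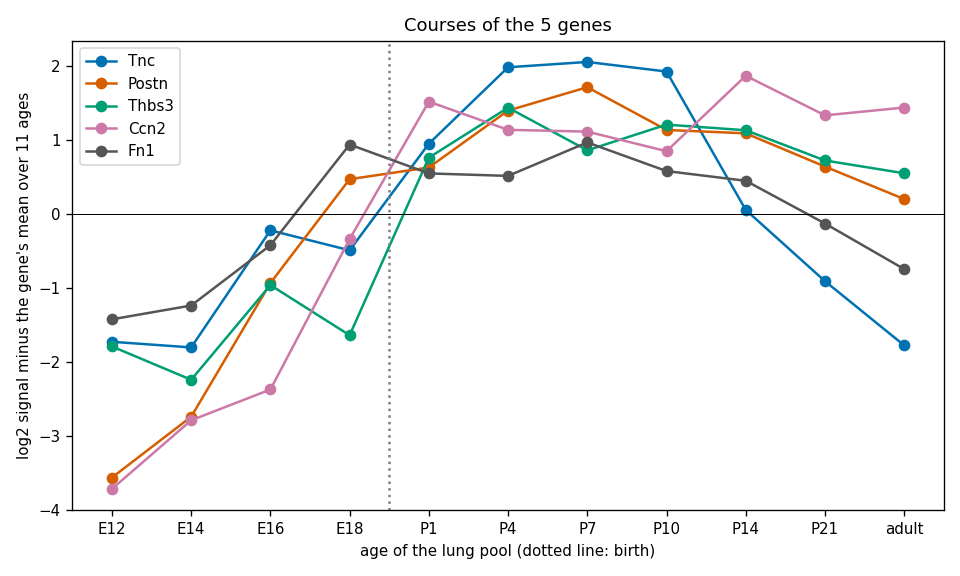
Log2 signal of each of the 5 genes minus its own mean over the 11 ages, against age, 1 point per pool joined by lines, with a dotted line at birth. Tnc turns down after P10, Fn1 is highest at P7 and E18, and Ccn2 stays high from P1 to the adult.

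The ages P4 to P14, when septa form, were set against the 5 ages before and the 2 after. Tnc was 2.16 ± 0.60 above the ages before and 2.84 ± 0.78 above those after, but its adjusted p were 0.101 and 0.225 (limma). Ccn2 was at 2.78 above the ages before and -0.14 from those after. No gene was called by this test (0% of all genes, limma), and 75 had an unadjusted p under 0.05 in both differences.

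A level change at birth beyond the straight line was called for Thbs3, at 2.76 ± 0.44 on the log2 scale (adjusted p = 0.047, limma). Of all genes, 4 were called higher (0.0969%) and 1 lower (0.0242%). The call was lost over all probe sets in place of genes (adjusted p = 0.0581) and without any 1 of 9 of the 11 ages, where adjusted p reached 0.217 without P4. Tnc (3.89 ± 1.14), Ccn2 (2.59 ± 0.83), Postn (2.07) and Fn1 (1.14) did not pass, with adjusted p from 0.247 to 0.601. Without E18, Ccn2 passed, at 3.83 ± 0.51 (adjusted p = 0.00997, limma).

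Whether the genes changed unequally was tested on the log2 ratio of each pair, 10 pairs in all, with an exact two-sided permutation test over the 330 ways to place the eras. Postn, Thbs3 and Ccn2 each rose relative to Fn1. The ratio was higher at postnatal than at embryonic ages by 1.81 for Postn over Fn1, 1.76 for Thbs3 over Fn1 and 2.78 for Ccn2 over Fn1. Each had p = 0.00606, the smallest this exact test can give, and an adjusted p of 0.0202, and in each all 7 postnatal ratios lay above all embryonic ones. Ages are stages of 1 course and not exchangeable. A ratio that drifts steadily with age can reach this p too, so the test does not place the change at birth. Without E12, E14 or E16 the adjusted p of these pairs was 0.0556 by the exact test, while without E18 they passed. With fewer ages the smallest p is larger, and its adjustment also depends on the other pairs. The other 7 pairs did not pass, with adjusted p from 0.158 to 0.976. The nearest were Tnc over Ccn2 at -1.95 and Postn over Ccn2 at -0.96, and Thbs3 over Ccn2 passed without E18 (-1.66, adjusted p = 0.0417). Postn over Thbs3 differed by 0.05.

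Across the 11 ages, which share the pools, log2 signals of the 5 genes correlated with r between 0.53 for Tnc with Ccn2 and 0.92 for Postn with Ccn2. The genes with the most similar course were taken by the highest Pearson correlation over the same 11 ages. For Ccn2 they were Ostf1 (r = 0.99), Klf4 (0.99) and Klf2 (0.99), all highest at P14. Klf4 and Klf2 encode zinc-finger transcription factors. For Postn they were Kitl, the ligand of the Kit receptor (0.99), App (0.98) and Fhl1 (0.98).

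For Tnc the nearest were Wnt5a, a secreted Wnt ligand (0.95), Car2, a carbonic anhydrase (0.95), and Bpgm, an enzyme of red cell glycolysis (0.94). Wnt5a was low on its chip, with a highest signal of 244.3 at P4. For Fn1 they were Septin4 (0.96), Col4a1, a basement membrane collagen chain (0.96), and Cbr2, a carbonyl reductase (0.95). For Thbs3 they were Adcy7, an adenylyl cyclase (0.96), Cpt1a, of fatty acid import into mitochondria (0.95), and Jup, plakoglobin (0.95).

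Other matricellular genes, by a list of 26 of which 13 were kept, varied in their courses. Postnatal against embryonic ages, 5 rose, 1 fell and 7 did not pass, with a median of 0.84, where 16.8% of all genes were called higher and 14.2% lower. Spock2, a proteoglycan of the SPARC family, rose by 2.79 ± 0.48 and Ccn1, a close relative of Ccn2, by 2.19 ± 0.27. Ecm1 rose by 1.81 ± 0.40. Vtn also rose, by 0.84 ± 0.22, which is the median of the list. Ccn1 and Vtn were under the chip's median of 250.3 at all embryonic ages. Spock2 and Ecm1 were above it only at E18 among them. These genes therefore passed the filter on low signals through their postnatal pools. Fbln1, fibulin 1, fell by 0.85 ± 0.23. Thbs1 and Thbs2 differed by 0.31 each and did not pass. Tgfbi, a secreted relative of periostin, was at 4196.3 at P4, 839.9 at P14 and 513.8 in the adult, and did not pass between the eras (0.43 ± 0.63).

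Of a list of 23 matrix receptors, 16 were kept. Among these 3 rose and none fell, with a median of 0.30, a share near the 16.8% of all genes called higher. Not all of them are receptors of the 5 proteins, and binding was not tested. Cd36 and Cd47, which bind thrombospondins, rose by 4.60 ± 0.82 and 1.14 ± 0.24, and Cd44, the hyaluronan receptor, by 1.56 ± 0.31. Cd44 was under the chip's median of 176.7 at all embryonic ages, and Cd36 was above it only at E18 among them. Both therefore passed the filter on low signals through their postnatal pools. The fibronectin receptor subunits Itga5 and Itgb1 differed by -0.03 and -0.07 and did not pass. Of the TGF-beta axis, 11 kept of 20, 4 rose and 1 fell, with a median of 0.56, beside the same 16.8% and 14.2% of all genes. Ltbp2, a latent TGF-beta-binding protein family member of elastic fibres, rose by 2.43 ± 0.51, Fst, follistatin, by 1.49 ± 0.38, Eng, an endothelial TGF-beta co-receptor, by 1.43 ± 0.26, and Tgif1, a repressor of SMAD signalling, fell by 0.63 ± 0.14. Among the embryonic pools Fst was above the chip's median only at E14.

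**Figure D5:**
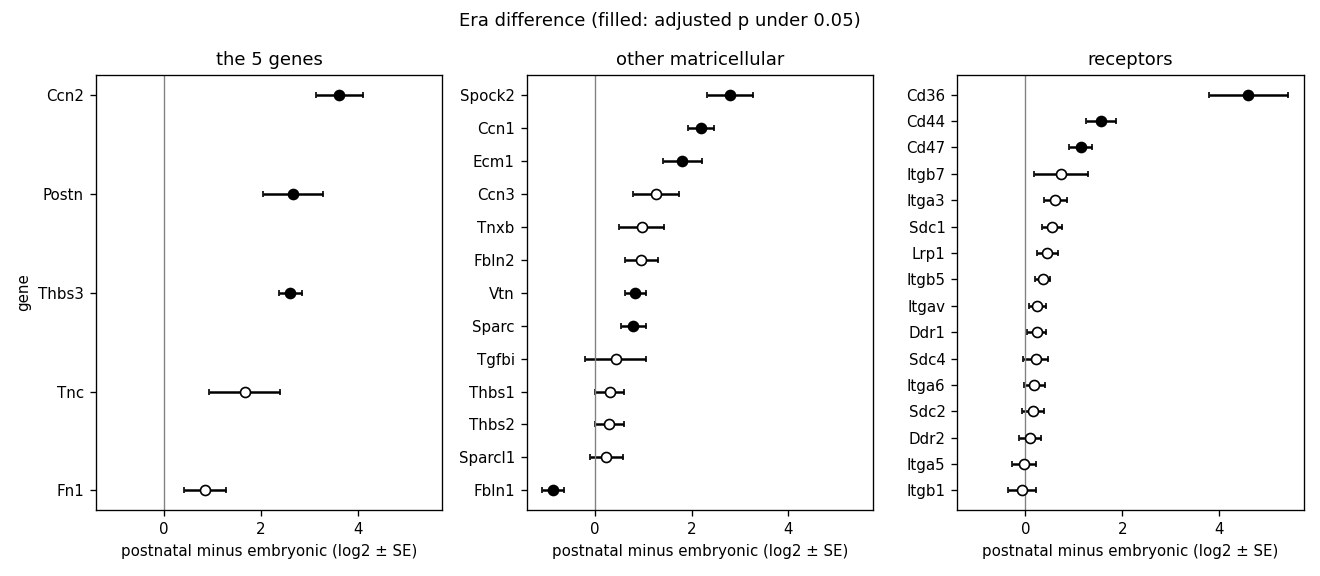
Postnatal minus embryonic difference (log2 ± SE) of the 5 genes, the 13 other matricellular genes and the 16 receptors, 1 point per gene, filled where the adjusted p is under 0.05. The 5 genes have a median of 2.61 and the other matricellular genes one of 0.84.

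Some marker lists of other cell types moved with the era, where 16.8% of all genes were called higher and 14.2% lower. Other lists moved less. None of 5 squamous markers passed, 1 of 4 T cell markers was higher, and of 6 skeletal muscle markers 1 was higher and 1 lower. Of 5 lung epithelial markers 2 were higher, and of 7 erythroid markers 2 were lower. All 8 kept endothelial markers were higher at postnatal ages, with sums of 28795 to 44988 at postnatal ages and 8494 to 29761 at embryonic ages. All 6 kept macrophage markers were higher too, with sums of 12365 to 17050 at postnatal and 1353 to 12682 at embryonic ages. No platelet gene of that list was kept. Adgre1, the smooth muscle marker Des and Thy1, the T cell marker that was higher, passed the filter on low signals through postnatal pools alone. Of the smooth muscle markers 3 of 6 were higher (sums of 11713 to 21667 at postnatal and 8855 to 16956 at embryonic ages). Of the heart markers 5 of 6 were higher (9421 to 19188 at postnatal and 4456 to 10293 at embryonic ages). Of the proliferation genes 10 of 11 were lower (3710 to 15121 at postnatal and 9276 to 27812 at embryonic ages). Their part in the differences of the 5 genes was not tested.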

How the data were processed

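RNA pools of 11 ages were measured on 22 Affymetrix arrays. The deposited values are intensities, 1 per probe set and array, which the authors had scaled: in the deposited files the mean after trimming 2% is 500.1 to 500.2 on chip A and 498.3 to 498.9 on chip B. The method that turned probe cells into signals is not stated in the labels used here. The number of arrays limits the precision, since each age has 1 pool. Scanner setting forms were not used.

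Signals under the 25th percentile of a chip (72.3 on chip A, 47.3 on chip B) were set to it and taken to log2. Probe sets above the chip median (250.3 and 176.7) on at least 2 arrays were kept, and the one with the highest mean stood for a gene. Fits used limma 3.58.1 in R 4.3.3 over 4130 genes, two-sided, with Benjamini-Hochberg adjustment. Chips A and B of an age counted as 1 sample. Member ratios used an exact permutation test (SciPy 1.17.1). The scripts were tested on simulated data. Gene symbols came from the platform annotation, and 7523 of 7540 were in the RefSeq gene table. The named genes are the 5 members, the 3 genes most correlated with each, and from each list those called with the largest changes. Itga5, Itgb1, Thbs1, Thbs2, Tgfbi, Fbln1, Tgif1, Mmp14, Vtn and Adam17 were chosen after their values were seen. Members and lists were chosen with earlier results of these data known. Alternatives were other floors, an offset of 50, quantile normalisation, no filter, an intensity trend, another division of the ages, and ages left out.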

Additional observations from a re-analysis of the deposited data

How the results depend on the processing

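No called value changed sign under the alternatives run. Dividing the ages before E18 brought Fn1 to 1.42. The Thbs3 step at birth no longer passed with the floor at the 10th percentile (2.83), log2(signal + 50) (2.37), quantile normalisation (2.81), no filter (2.76) or an intensity trend (2.76), and genes higher at birth numbered 0, 0, 2, 0 and 0 there. Genes lower at birth numbered 0 with the floor at the 40th percentile, no filter or the trend. The P4 to P14 test called 1 gene without the filter. Chosen after seeing the data, leaving out E12 and P7 gave 0.25 for the Postn line (adjusted p = 0.094), 1.92 for Postn between eras (adjusted p = 0.0539), 2.81 for the Thbs3 step, 573 and 506 genes by the line, 1039 by the smooth course, 295 and 154 between eras, and 0 and 0 at birth. Pairs with Fn1 then gave 1.47 (Postn), 2.14 (Thbs3) and 2.74 (Ccn2) and no longer passed. With fewer ages the smallest exact p is larger, and its adjustment also depends on the other pairs. Leaving out P1 and P21 gave 3.02 for the Thbs3 step, 1 gene for P4 to P14, 0 and 0 at birth, and 1.91, 1.80 and 2.69 for these pairs.

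Leaving out each age in turn gave 0.26 to 0.48 for the Postn line, 0.55 to 1.34 for Fn1 between eras (passing without E18), 1.42 to 2.07 for Tnc (passing without the adult), 2.49 to 3.08 for the Thbs3 step and 1.76 to 3.83 for the Ccn2 step (passing without E18). The pairs with Fn1 gave 1.49 to 2.04 (Postn), 1.28 to 2.01 (Thbs3) and 2.58 to 2.94 (Ccn2), and Thbs3 over Ccn2 -1.66 to -0.59. Genes by the line numbered 628 to 1008 higher and 538 to 899 lower, by the smooth course 1202 to 1886, between eras 342 to 986 higher and 166 to 883 lower, by P4 to P14 0 to 2, and at birth 0 to 95 higher and 0 to 45 lower. The cause of the changes was not tested. No paired analysis was possible because each age has 1 pool. Of all values, 823 kept their call or size, 49 moved, 35 lost a call and 5 gained one.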

Other observations

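The adhesion linker list, with 14 genes kept, also holds kinases and actin regulators such as Src, Rock1 and Cfl1. Of the 14 genes, 5 rose at postnatal against embryonic ages, none fell and 9 did not pass (median 0.26). Over all genes 16.8% were called higher and 14.2% lower. Vcl, vinculin, rose by 0.93 ± 0.19, Lims1 by 0.73 ± 0.19 and Fermt2, kindlin 2, by 0.66 ± 0.20 (limma, SE). Of 13 matrix proteases and inhibitors, 4 rose and none fell (median 0.33), beside the same shares of all genes. Timp2, an inhibitor of matrix metalloproteinases, rose by 1.88 ± 0.30, Plaur, the urokinase receptor, by 1.58 ± 0.42, and Plat, tissue plasminogen activator, by 1.57 ± 0.38. Adam17 also rose, by 0.77 ± 0.19. Adam17 was under the chip's median at all embryonic ages, and it passed the filter on low signals through its postnatal pools alone. Mmp14, a membrane-bound collagenase, was at 2462.4 at P7 and 403.1 in the adult and did not pass between the eras.

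Of 14 kept structural genes of fibroblasts, 1 rose, 1 fell and 12 did not pass (median 0.23), against 16.8% of all genes called higher and 14.2% lower. Bgn, biglycan, rose by 1.26 ± 0.33 and Fbn2, fibrillin 2, fell by 2.20 ± 0.67. Fbn2 was at 1765.4 at E16 and 28.1 in the adult.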
